A study of Rattus norvegicus with 7 samples.

Results

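Kidney tubule markers and ion transporters were followed as a panel of 44 rat genes that mark the segments of the nephron, carry ions, water or solutes across the tubule wall, or regulate that transport. A probe set was taken as a member when its only gene symbol in the platform annotation was one of the 44. This gave 66 of 31042 probe sets, for 43 genes of 14217. Wnk4, a kinase of the distal nephron, is listed only on probe sets that carry several symbols and was not analysed here. The arrays were of NRK-52E, an established epithelial line from rat kidney that is widely used as a tubule cell model. Cells were seeded at 20% confluence in 10% serum and transfected by Lipofectamine with 100 pmol siRNA per ml. RNA, 5 µg of total RNA per array, was taken after 48 h. There were 2 arrays of cells given siRNA 3488, 2 given siRNA 2600 and 3 given a scrambled siRNA. Both siRNAs 3488 and 2600 target Adamts16, which encodes a secreted metalloprotease. Each array is described in the series design as an independent culture, and no untransfected culture was analysed here. All groups are a single cell line under transfection, without the flow, polarity and neighbouring segments of a kidney.

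The question put to these data was which segment genes this line expresses at all, and which of them differed after either siRNA. As background, the proximal tubule reabsorbs most of the filtered sodium, glucose, phosphate and protein, through apical cotransporters, endocytic receptors and a brush border rich in peptidases. The thick ascending limb, distal convoluted tubule and collecting duct each use their own apical sodium carrier, while the sodium pump on the basolateral side drives all of them. The WNK kinases and their partner kinases set the activity of the cation-chloride cotransporters, the ubiquitin ligases of the Nedd4 family remove sodium channels from the membrane, and steroid receptors adjust the whole system.

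The siRNAs are shown as their antisense strands, since these define the groups compared. They are written 5′ to 3′ with bases 2 to 8, the seed by which a guide strand can pair with other transcripts, in capitals.
siRNA 3488: tTTCCGGAgacgtacttct
siRNA 2600: tTGCGCACagaaatatagg
scrambled control: aTTACCGAgcacattggagg
The 3 seeds differ from one another, and the scrambled duplex has 20 bases where the others have 19. The targeted gene could not serve as a check of the labels. Its 1 probe set read 12.1 and 40.4 on the 3488 arrays, 21.4 and 2.42 on the 2600 arrays, and 8.68, 7.18 and 18.9 in the controls, below the reference defined next on all 7 arrays.

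A signal is the intensity summary deposited for each probe set, in arbitrary units. Probe sets bind with different strengths, so a signal is compared between arrays for the same probe set, and neither signals nor ranks order the genes by abundance. To ask whether a gene was read at all, its brightest probe set was set against the 90th percentile of 66 genes that belong to other organs, such as heart, liver, pituitary and brain. That reference lay between 76.3 and 88.7 on the 3 control arrays. A gene was counted as above the reference when its signal exceeded it on every control array, and 5 of the 66 reference genes did so too. Of the 43 tubule genes, 14 were above the reference and 29 were not, against 66.4% above among all 14217 genes on the array. A gene not above the reference may be absent or too weak for its probes to read, and in bulk samples fewer cells of a type cannot be told apart from less RNA per cell.

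Among proximal tubule genes, some brush border and mitochondrial enzymes were above the reference and the carriers and receptors mostly were not. The brush border and mitochondrial enzymes gave 4 of 6 genes above it. Anpep, the brush border aminopeptidase N, read 272, 266 and 321 on the control arrays, and Ggt1, the gamma-glutamyltransferase that breaks down glutathione at the apical surface, read 303, 344 and 257. Mme, the peptidase neprilysin, read 148, 109 and 139. Gatm, the mitochondrial enzyme that begins creatine synthesis, read 213, 208 and 183 on its brighter probe set and 5.27, 6.35 and 7.13 on the other. These 4 genes stood at mean percentile ranks of 49.0 to 62.3 among all probe sets on the control arrays, on their brightest probe sets. The highest of the reference genes read 246, 218 and 275 on the control arrays. Mme, Gatm and Ggt1 did not exceed it on every control array, while Anpep did. The other peptidase, Dpp4, read 69.1, 48.4 and 58.3, and the alkaline phosphatase Alpl read 4.49, 2.74 and 2.72, so neither reached the reference.

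Of 9 proximal transporters, 2 were above the reference. Aqp1, the water channel of the proximal tubule and thin descending limb, read 269, 378 and 299 in the controls on its brighter probe set. Slc4a4, the basolateral sodium bicarbonate cotransporter, read 185, 200 and 237 on its brighter probe set and 17.5, 19.6 and 12.9 on the other. The other 7 comprise the phosphate carrier Slc34a1, the glucose carriers Slc5a1 and Slc5a2, the organic ion carriers Slc22a6, Slc22a8 and Slc22a2, and the sodium-proton exchanger Slc9a3. On their brightest probe sets these 7 read from 3.24 to 107 over all 7 arrays. Slc22a8 was the nearest to the reference, exceeding it on 5 of 7 arrays. Neither endocytic receptor of the proximal tubule was above the reference. Lrp2, or megalin, read 67.4, 96.9 and 111 in the controls and exceeded the reference on 4 of 7 arrays, while its partner Cubn read 23.5, 6.15 and 4.57.

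None of the 4 transcription factors of the nephron was above the reference. Hnf4a, which directs proximal differentiation, and Pax2, Pax8 and Lhx1, which act in the developing nephron, read at most 103 over the 7 arrays. Pax8 exceeded the reference on 1 array. The thick ascending limb gave 0 of 3 genes above it. Umod, which encodes the urinary protein uromodulin, read 23.7, 13.6 and 10.7 in the controls. Slc12a1, the apical sodium-potassium-chloride cotransporter of that segment, read 9.08, 22.7 and 5.29, and its potassium channel Kcnj1 read 8.94, 0.93 and 1.54. All 3 lay in the lower part of each control array, with mean percentile ranks of 4.61 to 16.6.

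The distal tubule and collecting duct gave 0 of 7 genes above the reference. Slc12a3, the thiazide-sensitive sodium chloride cotransporter, read 4.56, 32.2 and 22.4 in the controls, and the collecting duct water channels Aqp2 and Aqp3 read at most 12.8 and 61.6 there. The sodium channel subunits differed from one another in how near they came. Scnn1b exceeded the reference on 4 of 7 arrays, with 66.9, 110 and 112 in the controls, Scnn1g did so on 1 array and Scnn1a on none. Kcnj10, a basolateral potassium channel, read 19.7, 29.0 and 33.3.

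The genes that are not tied to 1 segment were read strongly. All 3 basolateral genes were above the reference. Atp1b1 and Atp1b3, beta subunits of the sodium pump, had signals of 9365 to 10169 and 6439 to 7068 in the controls, and Slc12a2, the basolateral sodium-potassium-chloride cotransporter, had 2194 to 2373. Of 5 measured regulators, 4 were above the reference: the ubiquitin ligases Nedd4 and Nedd4l, the kinase Wnk1, and Oxsr1, a kinase that WNK kinases activate. Stk39, the close relative of Oxsr1, read 50.5, 64.0 and 98.1 in the controls and exceeded the reference on 2 of 7 arrays. Among the steroid genes the glucocorticoid receptor Nr3c1 was above the reference at 2270 to 2418. The mineralocorticoid receptor Nr3c2 read 35.6, 33.6 and 14.8, and Hsd11b2, the enzyme that shields that receptor from glucocorticoids, exceeded the reference on 4 of 7 arrays. Havcr1, the injury molecule KIM-1 of the proximal tubule, read 10.2, 8.27 and 66.8.

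**Figure D1:**
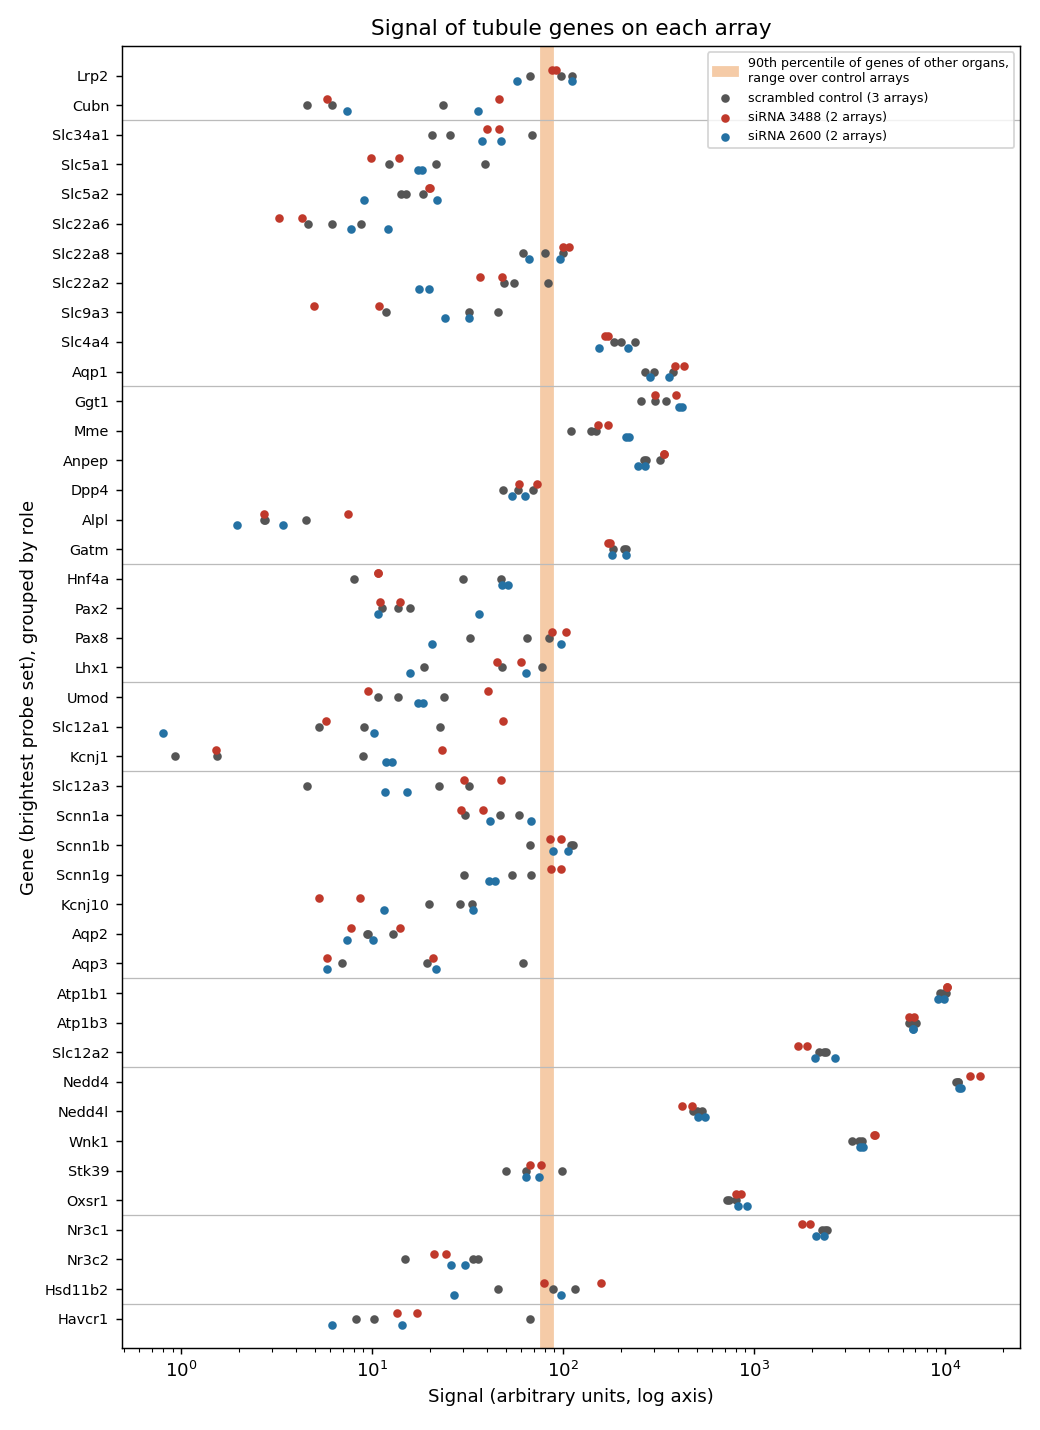
Signal of the brightest probe set of each of the 43 tubule genes on each of the 7 arrays, on a log axis in arbitrary units, with genes grouped by role and points coloured by siRNA group; the band spans the 90th percentile of the genes of other organs on the 3 control arrays, 76.3 to 88.7. The pump subunits, Slc12a2, Nedd4, Wnk1 and Nr3c1 lie far to the right of the band, and the genes of the thick ascending limb lie to its left on every array.

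Members on either side of the reference also differed in their promoters. RefSeq windows from 250 bases before to 50 after the start, in assembly GRCr8, were found for 38 of the 43 genes. A window was called CG rich when its CG dinucleotides exceeded 0.6 of the number its base composition gives and its G and C content exceeded 50%. The motif searched is CG, which reads the same on both strands. CG-rich windows were found for 10 of 13 genes above the reference, with a median of 31 CG dinucleotides, and for 9 of 25 not above it, with a median of 11. Over all genes on the array, 73.8% of 7947 above the reference and 32.8% of 3753 not above it had such a window, and 33.5% of all 27455 promoter windows did. The members thus follow the same division as the array at large, and the counts are a description of letters, not of methylation or activity in these cells. Wnk1 and Slc4a4 are printed as a general and a proximal gene above the reference, with 36 and 47 CG dinucleotides, and Slc34a1 and Umod as segment genes not above it, with 5 and 3. CG is in capitals, and each sequence is written along the strand of its gene.
Wnk1, chr4:154926098-154926397 on the minus strand: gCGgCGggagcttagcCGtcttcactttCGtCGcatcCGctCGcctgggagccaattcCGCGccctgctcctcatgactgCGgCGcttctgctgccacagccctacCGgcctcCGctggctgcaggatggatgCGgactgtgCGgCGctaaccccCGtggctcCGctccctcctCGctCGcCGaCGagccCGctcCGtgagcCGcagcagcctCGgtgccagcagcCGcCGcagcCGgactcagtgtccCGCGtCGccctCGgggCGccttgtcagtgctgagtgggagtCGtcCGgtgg
Slc4a4, chr14:19468233-19468532 on the minus strand: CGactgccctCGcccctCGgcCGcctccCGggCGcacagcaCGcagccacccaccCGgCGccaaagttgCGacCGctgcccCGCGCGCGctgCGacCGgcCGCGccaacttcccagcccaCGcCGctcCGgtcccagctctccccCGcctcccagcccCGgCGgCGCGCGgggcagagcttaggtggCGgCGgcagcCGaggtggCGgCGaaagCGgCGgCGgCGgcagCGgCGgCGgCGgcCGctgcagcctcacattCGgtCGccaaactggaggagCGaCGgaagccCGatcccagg
Slc34a1, chr17:9238934-9239233 on the minus strand: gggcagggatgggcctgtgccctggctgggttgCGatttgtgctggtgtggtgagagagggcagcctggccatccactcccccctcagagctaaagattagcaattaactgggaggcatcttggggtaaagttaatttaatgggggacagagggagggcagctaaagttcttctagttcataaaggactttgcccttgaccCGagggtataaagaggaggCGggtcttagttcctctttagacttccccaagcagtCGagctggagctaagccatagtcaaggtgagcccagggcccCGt
Umod, chr1:183260967-183261266 on the minus strand: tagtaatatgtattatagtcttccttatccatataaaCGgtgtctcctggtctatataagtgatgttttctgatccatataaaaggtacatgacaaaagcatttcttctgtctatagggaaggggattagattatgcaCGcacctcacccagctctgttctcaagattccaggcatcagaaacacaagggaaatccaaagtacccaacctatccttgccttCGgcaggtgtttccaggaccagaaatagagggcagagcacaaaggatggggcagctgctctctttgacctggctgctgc
The division had exceptions in both directions. Aqp1, Ggt1 and Anpep were above the reference with CG-poor windows of 6 or 7 CG dinucleotides, and Alpl and Pax2 were not above it with 32 and 29.

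**Figure D2:**
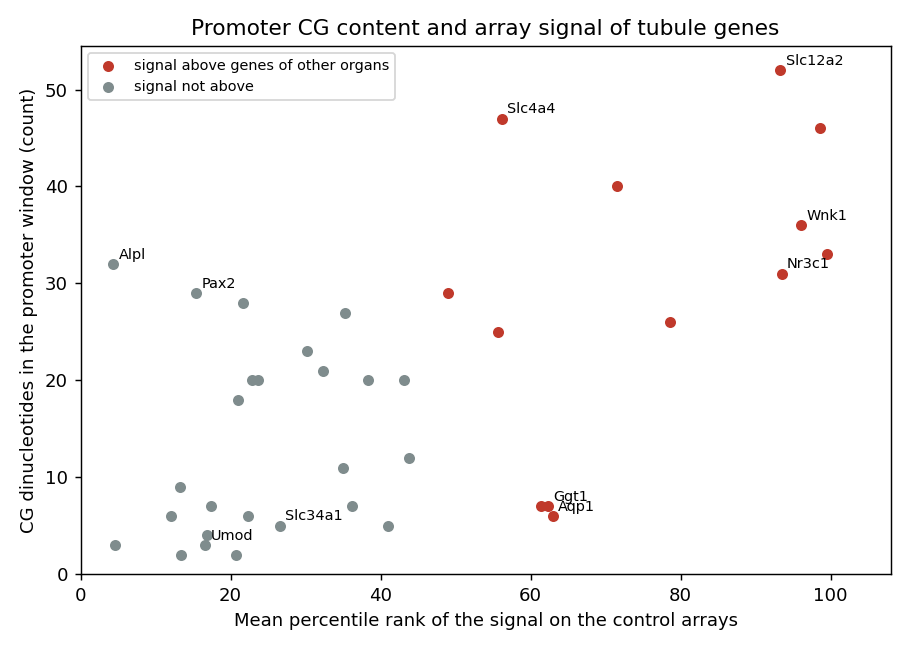
Number of CG dinucleotides in the 300-base promoter window (vertical axis) against the mean percentile rank of the gene's brightest probe set on the 3 control arrays (horizontal axis), 1 point per gene for 38 genes, coloured by whether the signal was above the genes of other organs. Most red points lie above 24 CG dinucleotides, with Aqp1, Ggt1 and Anpep as the low exceptions; ranks of different probe sets do not order genes by abundance.

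Differences between groups were tested with limma on log2 signals, over the 18625 probe sets whose mean log2 signal exceeded 6.09, a signal of about 68.2. Of the members, 28 probe sets of 19 genes passed this filter and 24 genes did not, among them every gene of the thick ascending limb and every transcription factor. A probe set was called when its p-value, adjusted by Benjamini-Hochberg over all 18625, was under 0.05. With 2 or 3 arrays a group the precision is limited, and the standard error of a member's log2 change ran from 0.06 to 0.57.

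With siRNA 3488, 5 of the 28 member probe sets were called, 3 higher and 2 lower than in the scrambled control. They belong to 4 genes: Nedd4 and Wnk1 were higher, and Slc12a2 and Nr3c1 were lower. The share is close to the background, since 15.6% of all probe sets tested were called, 6.89% as higher and 8.74% as lower. The 3488 and control arrays did not overlap for 16 of the 28, against 50.3% of all probe sets. The median log2 change was 0.10 over the members and -0.06 over all tested. An unadjusted limma p under 0.05 was found for 9 of the 28, against 5934 of all 18625 probe sets tested, a like share.

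Slc12a2 brings sodium, potassium and chloride into the cell from the basolateral side. Its probe set read 1902 and 1696 on the 3488 arrays, 2657 and 2080 on the 2600 arrays, and 2329, 2373 and 2194 in the controls. Both 3488 arrays lay below every other array, and the 2600 arrays lay on either side of the controls. The mean was 1799 ± 145 (SD, n = 2) against 2299 ± 93.2 (SD, n = 3), a fold of 0.782. Slc12a2 fell by 0.36 ± 0.10 (SE) on the log2 scale (limma adjusted p = 0.0400).

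Nr3c1 encodes the glucocorticoid receptor, a ligand-activated transcription factor. Its brighter probe set read 1964 and 1779 on the 3488 arrays, 2317 and 2100 on the 2600 arrays, and 2418, 2353 and 2270 in the controls. The 3488 arrays were again the lowest, without overlap with either group. The mean was 1872 ± 131 (SD, n = 2) against 2347 ± 74.4 (SD, n = 3), and the level fell by 0.33 ± 0.07 (SE) on the log2 scale (limma adjusted p = 0.0166). The second Nr3c1 probe set read 171 and 191 with siRNA 3488 against 239, 246 and 222 in the controls. Its arrays did not overlap either, but its log2 change of -0.38 ± 0.16 (SE) was not called (limma adjusted p = 0.121).

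Nedd4 encodes a ubiquitin ligase that gave its name to the family acting on membrane channels and transporters. One of its 6 probe sets read 13471 and 15183 on the 3488 arrays, 11815 and 12088 on the 2600 arrays, and 11374, 11633 and 11712 in the controls. Both 3488 arrays were above all others, and the 2600 arrays stood just above the controls. Its mean was 14327 ± 1211 (SD, n = 2) against 11573 ± 177 (SD, n = 3), and the level rose by 0.31 ± 0.07 (SE) on the log2 scale (limma adjusted p = 0.0140). The other called Nedd4 probe set read 12612 and 14174 on the 3488 arrays, 11938 and 12060 on the 2600 arrays, and 10894, 10921 and 10914 in the controls. The order of the groups was the same, and this probe set rose by 0.29 ± 0.06 (SE; limma adjusted p = 0.0149). The remaining 4 Nedd4 probe sets were not called. Their log2 changes were 0.12, 0.30, 0.13 and 1.05, with limma adjusted p-values of 0.313, 0.0978, 0.294 and 0.065. The last of these read 670 and 756 with siRNA 3488 against 243, 331 and 505 in the controls, without overlap. Nedd4l, the relative best known for acting on the sodium channel, was not called: it read 421 and 475 against 479, 537 and 500 (limma adjusted p = 0.289).

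Wnk1 encodes the kinase at the head of the cascade that acts on cation-chloride cotransporters. Its called probe set read 4262 and 4301 on the 3488 arrays, 3607 and 3724 on the 2600 arrays, and 3265, 3537 and 3667 in the controls. Both 3488 arrays exceeded all others, and the 2600 arrays overlapped the controls. The mean was 4281 ± 27.1 (SD, n = 2) against 3490 ± 205 (SD, n = 3), and it rose by 0.30 ± 0.07 (SE) in log2 units (limma adjusted p = 0.0157). The rise was not seen on the other tested Wnk1 probe set, which read 1192 and 1059 against 1117, 1224 and 1156, with a log2 change of -0.05 (limma adjusted p = 0.695). A dim one under the filter read 4.05 and 22.3 on the 3488 arrays, 68.9 and 112 on the 2600 arrays, and 120, 60.0 and 78.9 in the controls. With no filter it was called lower with siRNA 3488, at a log2 change of -3.12 (limma adjusted p = 0.0318). The remaining Wnk1 probe sets, dimmer still, stood at -0.83 and -1.67 and were not called with no filter (limma adjusted p = 0.444 and 0.284). None of these dim probe sets was above the reference, so no direction is read from them.

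**Figure D3:**
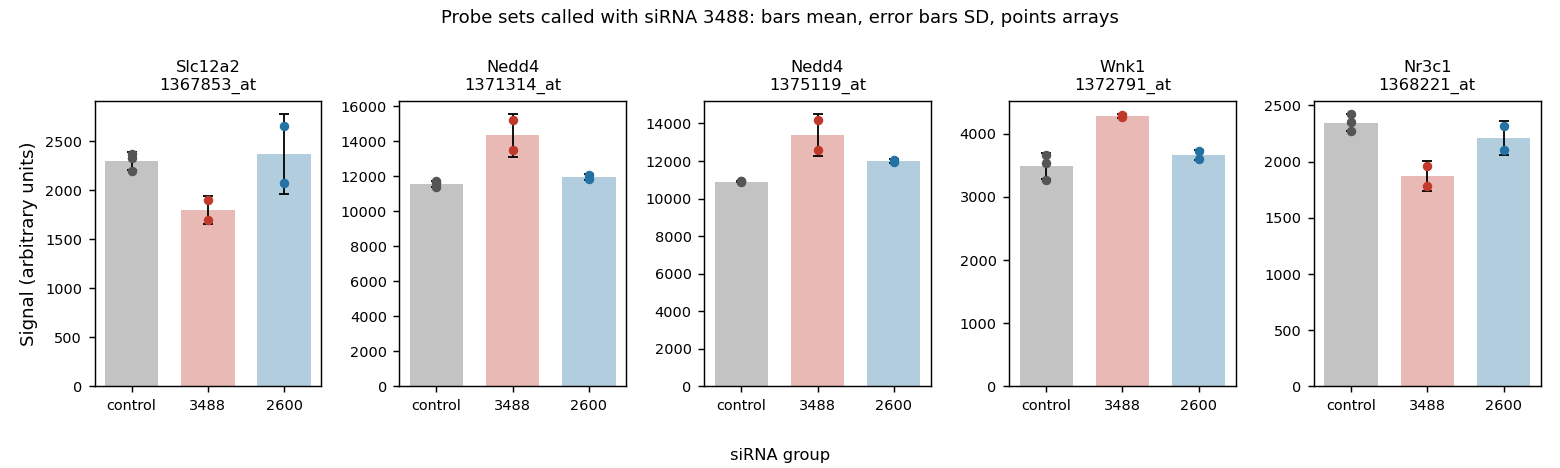
Signal in arbitrary units for the 5 probe sets called with siRNA 3488, with axes from 0; bars are means, error bars the SD and points single arrays (3 control, 2 of siRNA 3488, 2 of siRNA 2600). In each panel both 3488 arrays lie on 1 side of every control array, above them for Nedd4 and Wnk1 and below them for Slc12a2 and Nr3c1.

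The direction of 4 of the 6 Nedd4 probe sets, both called ones among them, depended on how the arrays were scaled, and that of Slc12a2 and Nr3c1 did not in any scaling tried. The called Nedd4 probe sets stood at log2 changes of -0.08 and -0.08 after quantile normalization (limma adjusted p = 0.178 and 0.187), 0.04 and 0.03 after cyclic loess, and 0.40 and 0.39 after median centring. Another probe set, not called under the deposited scaling, was called lower after quantile normalization, at -0.18 (limma adjusted p = 0.0343). The 2 Nedd4 probe sets with the largest uncalled changes kept their direction, at 1.13, 1.17 and 1.15 and at 0.11, 0.15 and 0.40 in these 3 scalings, and were called, of these, after median centring alone. Wnk1 kept its direction but was called under neither quantile normalization (0.18; limma adjusted p = 0.0688) nor cyclic loess (0.19; limma adjusted p = 0.0589). Slc12a2 stood at -0.35 (limma adjusted p = 0.0514), -0.38 (0.0367) and -0.26 (0.177) after quantile normalization, cyclic loess and median centring, and Nr3c1 at -0.32 (0.0208), -0.36 (0.0160) and -0.23 (0.127). Over all 18625 probe sets tested, 1839 were called after quantile normalization, 1949 after cyclic loess and 2304 after median centring. Each of these scalings also called 5 member probe sets, but not the same ones. After quantile normalization all 5 were lower, namely both Atp1b1 probe sets, Atp1b3, a Nedd4 probe set and Nr3c1. After cyclic loess all 5 were lower too, with Slc12a2 in place of Nedd4. After median centring all 5 were higher, 4 of Nedd4 and 1 of Wnk1. Bright probe sets moved upward as a class with siRNA 3488: the brightest 10% of those tested, 1863 with 9 member probe sets among them, had a median log2 change of 0.15, and 37.4% were called higher. The 18 probe sets of the spike-in controls added during processing stood at a median log2 change of 0.52 for siRNA 3488 and of 0.03 for siRNA 2600. The beta-actin 3′ to 5′ signal ratio was 1.94 to 1.96 with siRNA 3488, 1.81 to 1.83 with siRNA 2600 and 1.74 to 1.79 in the controls, and the part of these in the members' changes was not tested. The calls were also lost when some single arrays were left out. Without control replicate 1 or control replicate 2, 0 of 28 were called, and calls over all probe sets fell from 2911 to 980 and 1335. The log2 change was then -0.35 and -0.33 for Slc12a2, and 0.25 and 0.31 for Wnk1. Without siRNA 3488 replicate 2 it was -0.27 for Slc12a2, -0.26 for Nr3c1, 0.22 and 0.21 for the called Nedd4 probe sets and 0.29 for Wnk1. When limma was fitted with no intensity trend, 0 of 28 were called.

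**Figure D4:**
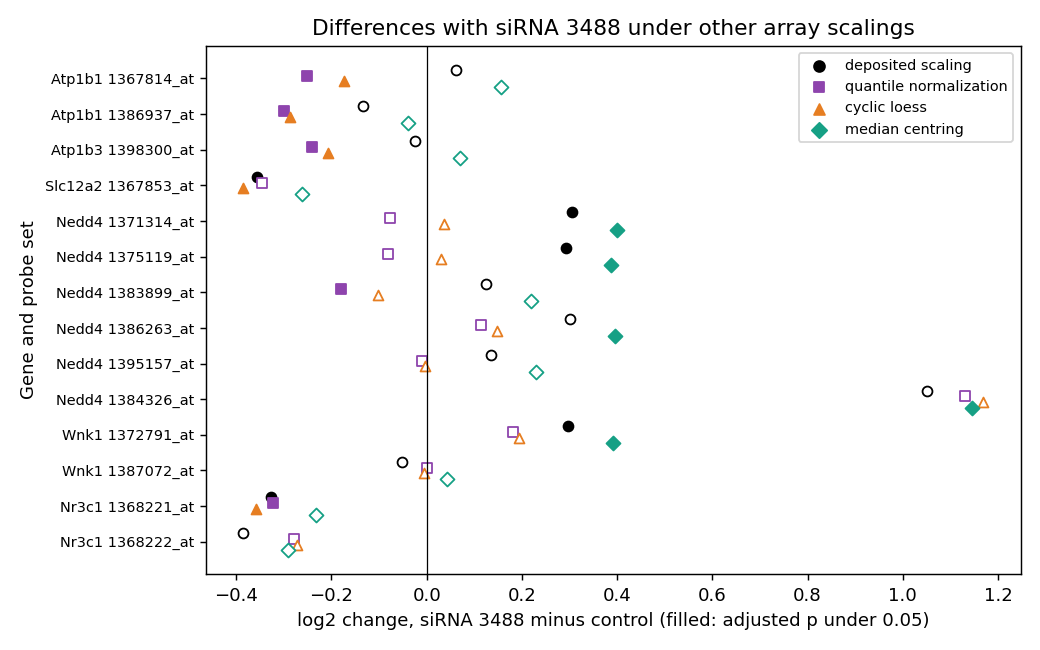
Log2 change with siRNA 3488 against the scrambled control (horizontal axis) for 14 member probe sets under the deposited scaling, quantile normalization, cyclic loess and median centring; filled symbols have a limma adjusted p under 0.05. Slc12a2 and Nr3c1 stay left of 0 under all 4 scalings, while the 2 called Nedd4 probe sets lie left of 0 after quantile normalization and right of 0 under the other 3.

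The remaining basolateral and segment genes were not called with siRNA 3488 under the deposited scaling. Atp1b1 read 10284 and 10195 with siRNA 3488 against 9365, 9921 and 10169 on its brighter probe set, a log2 change of 0.06 (limma adjusted p = 0.536). Atp1b1's other probe set read 5346 and 5266 against 5439, 5768 and 6276, without overlap, a log2 change of -0.13 (limma adjusted p = 0.217). Atp1b3, at 6838 and 6509 against 6439, 6871 and 7068, had a log2 change of -0.02, and its 95% interval from -0.16 to 0.11 bounds the size of any difference. Oxsr1 read 856 and 804 against 801, 740 and 718 (limma adjusted p = 0.301), with no overlap between the groups. The pump subunits were thus measured closely and moved little, except under the 2 scalings named above.

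The 4 proximal enzymes and the tested proximal carriers and receptor gave no call. Anpep read 339 and 337 with siRNA 3488 against 272, 266 and 321 in the controls, without overlap (limma adjusted p = 0.241). The 2 probe sets of Aqp1 went in opposite directions. The brighter read 385 and 430 against 269, 378 and 299 (limma adjusted p = 0.141), and the dimmer 71.4 and 105 against 147, 183 and 95.1 (limma adjusted p = 0.158). Slc4a4 read 173 and 165 against 185, 200 and 237, below every control (limma adjusted p = 0.343). Among the 9 tested proximal probe sets, the limma adjusted p-values ran from 0.141 to 0.993. Scnn1b, the only gene of the distal tubule and collecting duct that was tested, read 97.3 and 85.8 with siRNA 3488, within the range of the controls. The 95% interval of its log2 change ran from -0.68 to 0.61.

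With siRNA 2600, 0 of 28 member probe sets were called by limma, against 1.03% of all probe sets tested (0.548% higher, 0.483% lower). An unadjusted p under 0.05 was found for 3, against 2831 of all 18625 tested. The groups did not overlap for 8, against 34% of all probe sets. The median log2 change was 0.03 over the members and -0.02 over all tested. The lowest adjusted p among members was that of Mme, the peptidase neprilysin. It read 221 and 213 with siRNA 2600 and 172 and 153 with siRNA 3488, against 148, 109 and 139 in the controls. Both siRNA groups lay above every control array, and the log2 change with siRNA 2600 was 0.73 ± 0.19 (SE; limma adjusted p = 0.113). Ggt1 read 405 and 417 with siRNA 2600 and 301 and 388 with siRNA 3488, against 303, 344 and 257 in the controls. Both 2600 arrays exceeded every control array, but the limma adjusted p was 0.204. The other genes above the reference gave no call with siRNA 2600 either: Anpep read 270 and 247 with it, Gatm 213 and 180, Slc4a4 219 and 153, Aqp1 286 and 359 on its brighter probe set, Nedd4l 508 and 554 and Oxsr1 916 and 828. Only Oxsr1 among these 6 had both 2600 arrays above every control, and Anpep, Slc4a4, Aqp1, Gatm and Nedd4l overlapped the controls. The pump subunits Atp1b1 and Atp1b3 read 9228 and 9868 and 6788 and 6835 on their brightest probe sets, inside or near the range of the controls. The other Atp1b1 probe set read 5264 and 5376 with siRNA 2600, below its controls at 5439, 5768 and 6276 (limma adjusted p = 0.415).

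For the genes called with siRNA 3488, the log2 changes with siRNA 2600 were 0.03 for Slc12a2, -0.09 for Nr3c1, 0.05 and 0.14 for the Nedd4 probe sets and 0.07 for Wnk1, with limma adjusted p-values of 0.349 to 0.913.

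**Figure D5:**
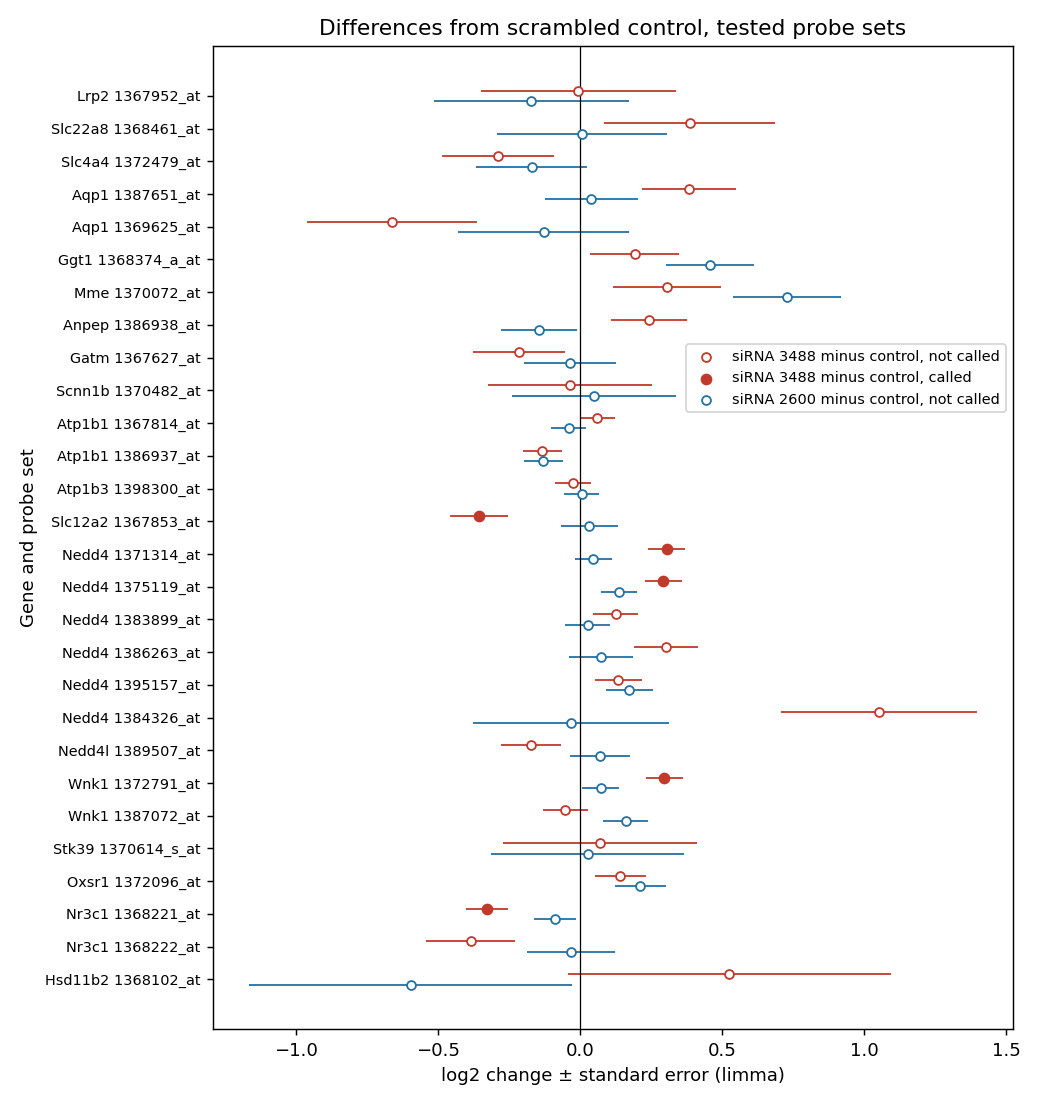
Log2 change from the scrambled control with its standard error (limma) for the 28 tested member probe sets, in red for siRNA 3488 and in blue for siRNA 2600; filled points were called. The 5 filled points are those of Slc12a2, Nedd4 (2 probe sets), Wnk1 and Nr3c1, and no blue point is filled; both comparisons share the same 3 control arrays.

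The siRNAs were also compared with each other, which tests whether a change differed between them. By limma 0 of 28 member probe sets were called, against 6.01% of all probe sets tested, 2.84% higher and 3.17% lower. An unadjusted p under 0.05 was found for 8, against 4412 of all 18625 tested. The groups did not overlap for 18, against 49.6%. The log2 difference of siRNA 3488 from siRNA 2600 was -0.39 for Slc12a2 (limma adjusted p = 0.0676), -0.24 for Nr3c1 (0.108), 0.26 and 0.16 for the Nedd4 probe sets (0.0615 and 0.211) and 0.22 for Wnk1 (0.0948). None of the changes called with siRNA 3488 was thus shown to differ between the siRNAs. With both siRNAs pooled against the control, 0 of 28 were called by limma, against 0.145% of all probe sets (0.102% higher, 0.043% lower). Of the 28, 4 had an unadjusted p under 0.05, against 3310 of all 18625 tested. The groups did not overlap for 5, against 17.7%.

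A wider list of 105 other tubule genes gave a like picture of the line. Of 91 with a probe set, 33 were above the reference, and 48 probe sets of 38 genes were tested. With siRNA 3488, 4 of the 48 were called higher and 2 lower than in the control, against 6.89% and 8.74% of all probe sets tested. With siRNA 2600 none was called by limma. The higher ones were Nherf1, a scaffold of apical carriers, the bicarbonate carrier Slc4a7, the transcription factor Gata3 and the deubiquitinase Usp2, with log2 changes of 0.22, 0.33, 0.79 and 0.47 (limma adjusted p = 0.0373, 0.0355, 0.0390 and 0.0472). The lower ones were the channel kinase Trpm7 and the calcium pump Atp2b1, with log2 changes of -0.25 and -0.47 (limma adjusted p = 0.0269 and 0.0245). Each of the 6 genes has at least 1 further tested probe set, and none of those was called. All 6 calls were lost without control replicate 1, without control replicate 3 or without siRNA 3488 replicate 2, at limma adjusted p-values of up to 0.249. Those of Nherf1, Usp2 and Trpm7 held in 2 of the 7 fits that leave out 1 array.

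Markers of cell type set the tubule genes in context. Of 14 measured epithelial markers, 4 were above the reference, namely Tjp1, Krt8, Ocln and Krt19. The defining adhesion genes Cdh1, Epcam and Cdh16 were not, with Cdh1 at a mean percentile rank of 6.59 in the controls, so the labelled epithelial identity was only partly visible. Of 19 fibroblast and mesenchymal markers 12 were above it, near the 66.4% of all genes on the array, among them Vim, Col3a1, S100a4 and Postn. Their summed signal was 63114 and 70741 on the 3488 arrays, 54928 and 56485 on the 2600 arrays, and 51435, 53362 and 52827 in the controls. Of their 15 tested probe sets 5 were called higher with siRNA 3488 and none lower, against 6.89% and 8.74% of all probe sets tested. These sums are carried by the brightest probe sets: 6 of the 15, with 4 of the 5 calls, belong to the brightest 10%, of which 37.4% were called higher over the whole array. Of the 15, 4 had a log2 change below 0, and Vim stood at 0.07, not called, after quantile normalization. The part of such genes in the members' changes was not tested. Of the 7 tested epithelial probe sets 0 were called with siRNA 3488, against 15.6% of all tested. Of these 7, 3 had a log2 change above 0 and 4 below. Of podocyte markers 1 of 4 was above the reference, of endothelial markers 1 of 6 and of leukocyte markers 2 of 8. The leukocyte marker Ptprc, the endothelial marker Pecam1 and the podocyte marker Nphs1 were not above the reference, at mean percentile ranks of 6.30, 9.43 and 14.6. They do not stand for their lists: the brightest probe sets of the leukocyte markers summed to 6059, 6519 and 6124 in the controls. Of 3 tested leukocyte probe sets 1 was called higher with siRNA 3488 than in the control, against 6.89% of all tested. In the comparison with siRNA 2600, 1 was called higher with siRNA 3488, against 2.84%.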

How the data were processed

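RNA from 7 cultures was hybridised to rat expression arrays. Per the submitters' processing notes, the authors made the deposited signal, a linear intensity per probe set, with GCOS 1.4. Neither its scaling settings nor detection calls are given in these sources. The 2% trimmed mean lay between 500.143 and 500.179 on all arrays and the median signal between 126 and 139. Of 31042 probe sets that are no controls, 20826 had 1 gene symbol in the platform annotation, 436 several and 9780 none.

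The deposited scaling was kept, and log2 values were formed after raising every signal below 1 to 1. The upper 60% by mean log2 signal, 18625 probe sets, were tested with limma 3.58.1 in R 4.3.3 (lmFit, eBayes with intensity trend, Benjamini-Hochberg). Single siRNAs were tested in a model of 3 groups and both siRNAs pooled in one of 2 groups. In simulated data of the 3488 comparison, 200 of 18625 probe sets were changed. Of changes of 1.25, 1.5, 2 and 3-fold, 8%, 32%, 68% and 84% were called. Alternatives covered scaling, filter, offset, variance model, probe set choice, replicate block and single arrays.

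The members and lists were chosen with earlier results of these data known. Members were named by their symbols, those above the reference or called with values; of other lists, called genes and the brightest markers. Nherf1 was listed under an older symbol.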

Additional observations from a re-analysis of the deposited data

Results flagged for a closer look

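No member probe set was picked out by a test of the difference between the siRNAs. In the lists of other tubule genes and of injury and dedifferentiation markers 6 probe sets were. For these, limma found a different change with siRNA 3488 than with siRNA 2600 against the same 3 controls. The fibroblast and mesenchymal list held 2 such probe sets and the leukocyte list 1, all higher with siRNA 3488, and they are not described here. Among the other tubule genes, Slc7a9, the subunit of the apical cystine and basic amino acid carrier, read 279 and 241 with siRNA 3488 and 137 and 167 with siRNA 2600, a log2 difference of 0.77 (limma adjusted p = 0.0412). Its controls, at 237, 208 and 264, lay above both 2600 arrays, and neither siRNA alone was called against them. The scaffold Nherf1 differed by 0.37 (limma adjusted p = 0.0176), the bicarbonate carrier Slc4a7 by 0.39 (0.0471) and the deubiquitinase Usp2 by 0.60 (0.0487). Nherf1, Slc4a7 and Usp2 have a further tested probe set each, and none of those was called. Among injury and dedifferentiation markers, Clu differed by 0.36 (limma adjusted p = 0.0377) and Anxa1 by 0.46 (0.0152). After quantile normalization Slc7a9 alone of the 6 was still called. Over all probe sets tested, 6.01% were called in this comparison. These calls were sensitive to leaving out 1 array. Leaving out any 1 of the 7 arrays ended those of Slc4a7 and Usp2 (limma adjusted p = 0.0568 to 0.218 and 0.0612 to 0.210). Those of Slc7a9 and Clu held in 1 of 7 such fits, without siRNA 2600 replicate 2 and without siRNA 3488 replicate 1 respectively. Those of Nherf1 and Anxa1 held in 5 of 7 and were lost without siRNA 2600 replicate 1 or siRNA 3488 replicate 2.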

How the results depend on the processing

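The count of 5 member probe sets called with siRNA 3488 became 0 with no intensity trend and 8 (5 higher, 3 lower) with the replicate number as a block, and ran from 0 to 6 when 1 array was left out, with 0 without control replicate 1, control replicate 2 or siRNA 3488 replicate 2. Against siRNA 2600 the count of 0 became 2 with 1 probe set per gene and 3 with the replicate block, and ran from 0 to 2 without 1 array. For both siRNAs pooled it became 1 with the mean of the 2 effects and ran from 0 to 1 without 1 array. With siRNA 2600 it was 0 in every setting run. The count of 14 genes above the reference became 17, 13 and 10 with the 75th and 95th percentile and the highest reference gene, 11 with the dimmest probe set, and 14 to 16 without 1 control array. The genes lost against the highest reference gene were Mme, Gatm, Ggt1 and Slc4a4, all of them proximal. Over all 18625 probe sets, siRNA 3488 gave 2911 calls against the control in the main fit. It gave 591 with no intensity trend and 2721 with the replicate block. Between the siRNAs, 945 of 10019 were called with 1 probe set per gene and 1561 of 18625 with the block. For the mean of the 2 effects 1378 of 18625 were called.

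Some log2 changes changed sign. With siRNA 3488 and quantile normalization, 4 of the 6 Nedd4 probe sets stood at -0.077, -0.082, -0.18 and -0.010 and the other 2 stayed above 0, Atp1b1 at -0.25, Anxa1 at -0.036 and the second Wnk1 probe set at 0.00010. With cyclic loess Nedd4 stood at -0.10 and -0.0027 and Atp1b1 at -0.17. With median centring Wnk1 stood at 0.043 and Atp1b3 at 0.070, and with the replicate block Atp1b3 stood at 0.0043. Leaving out 1 array, the second Wnk1 probe set ran from -0.14 to 0.033 and Atp1b3 from -0.063 to 0.011. With siRNA 2600 Nedd4 stood at -0.025 and -0.020 under quantile normalization and cyclic loess, and Slc12a2 at -0.00019 with the replicate block and from -0.14 to 0.21 without 1 array. Between the siRNAs Nedd4 stood at -0.053 and -0.14 under quantile normalization and -0.043 under cyclic loess. The cause of these was not tested.

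Whether arrays with the same replicate number shared more than the number is not known. Their deviations from the group means correlated at -0.05 to 0.16. In groups of 2 arrays the deviations mirror each other, so these correlations cannot decide it, and the block is not read as a pairing. The 2 or 3 arrays a group, and signals near the reference, limit what could be called. In the simulation 32% of changes of 1.5-fold were called, with 200 of 18625 probe sets changed. In the data 15.6% were called with siRNA 3488. The adjusted p depends on that share, so the simulation does not give the recovery in these data.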

Other observations

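A list of tubule injury and dedifferentiation genes other than Havcr1 was chosen with earlier results of these data known. Of 14 with a probe set, 10 were above the reference, near the 66.4% of all genes on the array. Of their tested probe sets, 8 of 19, for 6 genes, were higher with siRNA 3488 by limma, with none lower, against 6.89% called higher over all probe sets tested and 37.4% over the brightest 10%. The list is bright, with 6 of the 19 and 5 of the 8 calls in that brightest class. The median log2 change of the 19 was 0.38, against -0.06 over all tested and 0.15 over the brightest 10%. Timp1, an inhibitor of metalloproteases, read 13869 and 16960 with siRNA 3488 and 12008 and 13701 with siRNA 2600. Its controls read 9914, 10434 and 10851. Its log2 change with siRNA 3488 was 0.56 ± 0.09 (SE; limma adjusted p = 0.0060), and both siRNA groups lay above every control. Sox4, a transcription factor, read 6035 and 6129 against 4583, 4348 and 4730 on its brightest probe set, and rose by 0.42 on the log2 scale (limma adjusted p = 0.0046). Timp1 and Sox4 were also called higher under quantile normalization, cyclic loess and median centring and without any 1 array, and neither was called with no intensity trend (limma adjusted p = 0.0542 and 0.0513).

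Others of the list depended on the scaling. Anxa1, an annexin, and Vim, an intermediate filament protein of mesenchymal and dedifferentiated cells, rose with siRNA 3488 by 0.42 and 0.45 on the log2 scale (limma adjusted p = 0.0069 and 0.0056). After quantile normalization they stood at -0.04 and 0.07, and neither was called. Spp1, the secreted phosphoprotein osteopontin, was the only gene of the list called with siRNA 2600. It read 14623 and 17515 against 11719, 12439 and 11277 in the controls, and rose by 0.44 on the log2 scale (limma adjusted p = 0.0418), and it was called higher under all 3 other scalings. The call was lost without any 1 of the 3 control arrays or without siRNA 2600 replicate 2 (limma adjusted p up to 0.183), with no filter and with no intensity trend.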
